A study of Mus musculus with 3 samples.

Results

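Early B lymphoid genes are described here on 3 microarrays of sorted mouse bone marrow stroma. The set holds 9 genes of 19938 measured, listed by name with earlier results of these data known. They are the recombinase genes Rag1 and Rag2, the nucleotide-adding enzyme gene Dntt, and the surrogate light chain genes Igll1 and Vpreb1 with the related Vpreb3. The others are the receptor signalling chains Cd79a and Cd79b and the transcription factor gene Pax5. Each was read from 1 Affymetrix probe set that carries its symbol alone; every one of the 9 has a single such probe set, so no choice between probe sets was needed. Values are log2 of the deposited signal intensity.

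The series set CXCL12-abundant reticular (CAR) cells, perivascular stromal cells that make large amounts of the chemokine CXCL12, beside PDGFRa+ Sca+ CD45- lineage- cells, a mesenchymal progenitor gate called PaS here. The CAR group has 2 arrays, from 2 CXCL12-GFP knock-in mice. The PaS group is 1 array of cells combined from 3 Prx1-Cre Rosa26Ai9/+ Cxcl12gfp/+ mice, so it has no replicate. All the mice carry GFP at the Cxcl12 locus. Only the PaS mice carry Prx1-Cre, which is driven by a promoter of limb mesenchyme, and the Rosa26 reporter, so cell type and genotype differ together. Cells came from tibia, femur and pelvis at baseline; age is not given in the sources used here. Nothing in a bulk array tells fewer cells of a type from less RNA per cell.

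B lymphocytes form in the bone marrow beside stromal cells that make CXCL12 and interleukin 7. In pro-B cells RAG1 and RAG2 together cut the immunoglobulin genes, and terminal deoxynucleotidyl transferase, the product of Dntt, adds bases at the cut ends. In pre-B cells the surrogate light chain, made of lambda5 (Igll1) and VpreB, pairs with the new heavy chain, and the CD79a and CD79b chains carry the signal into the cell. None of these genes is a usual product of stroma, and CD45 and lineage antigens mark the cells that normally express them.

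The upstream sequences are shown for 5 members, those of the 8 in the promoter table that held a match to the motifs below. Among them, Vpreb1 and Igll1 are neighbours of which only Igll1 passed the test. Sequences are RefSeq's, build GRCm38.p6, and cover the 250 bases before the annotated start, 5′ to 3′ on the gene's strand. They are Rag1 at chr2:101649533-101649782 (minus strand), Cd79a at chr7:24897247-24897496 (plus), Igll1 at chr16:16863986-16864235 (minus), Vpreb1 at chr16:16869256-16869505 (minus) and Vpreb3 at chr10:75948050-75948299 (plus). Capitals mark matches to 4 motifs searched on both strands: CAGGTG, the E-box read by E2A proteins; CCCNNGGG, the core of EBF1 sites; TGGGAA, the Ikaros core; and ATGCAAAT, the octamer read by OCT1 and OCT2.
Rag1: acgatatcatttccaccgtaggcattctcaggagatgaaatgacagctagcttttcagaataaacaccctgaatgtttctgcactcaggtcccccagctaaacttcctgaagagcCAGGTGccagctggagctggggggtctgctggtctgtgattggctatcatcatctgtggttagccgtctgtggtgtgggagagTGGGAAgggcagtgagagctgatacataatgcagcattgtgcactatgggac
Cd79a: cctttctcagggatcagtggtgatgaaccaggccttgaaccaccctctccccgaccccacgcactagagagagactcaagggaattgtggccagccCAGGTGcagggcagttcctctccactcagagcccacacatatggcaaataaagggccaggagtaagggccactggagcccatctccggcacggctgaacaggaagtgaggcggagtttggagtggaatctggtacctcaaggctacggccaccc
Igll1: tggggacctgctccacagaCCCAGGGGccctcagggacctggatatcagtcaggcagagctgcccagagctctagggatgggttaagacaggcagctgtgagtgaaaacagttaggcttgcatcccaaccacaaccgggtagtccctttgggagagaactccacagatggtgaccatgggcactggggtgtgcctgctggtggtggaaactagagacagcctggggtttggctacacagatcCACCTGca
Vpreb1: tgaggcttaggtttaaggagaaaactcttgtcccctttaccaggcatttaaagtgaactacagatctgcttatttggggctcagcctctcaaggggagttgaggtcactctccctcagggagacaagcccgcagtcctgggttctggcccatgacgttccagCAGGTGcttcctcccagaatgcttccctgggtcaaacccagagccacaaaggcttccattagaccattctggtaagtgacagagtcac
Vpreb3: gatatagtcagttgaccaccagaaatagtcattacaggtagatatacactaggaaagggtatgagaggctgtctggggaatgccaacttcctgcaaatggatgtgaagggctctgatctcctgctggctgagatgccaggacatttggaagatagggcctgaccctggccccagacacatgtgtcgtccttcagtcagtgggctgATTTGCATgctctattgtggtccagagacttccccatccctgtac
The printed matches do not overlap one another. CAGGTG or its complement stood in 4 of the 8 members found in the promoter table (Rag1, Cd79a, Igll1, Vpreb1), against 17.2% of all 32851 promoters. Its first base lay 135 bases before the start in Rag1, 154 in Cd79a, 88 in Vpreb1 and 8 in Igll1. CCCNNGGG was found in Igll1 alone (11.8% of all promoters), TGGGAA in Rag1 alone (21.6%) and the octamer in Vpreb3 alone (1.60%). The windows of Rag2, Pax5 and Dntt held no match to these letters. A match is a description of the sequence and not evidence of binding.

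The early B lymphoid genes read higher on the array labelled PaS than in CAR cells. Both CAR arrays lay below that array for 9 of 9 genes, as they did for 46.8% of all genes, while 37.4% of all genes had both CAR arrays above it. In limma's test with Benjamini-Hochberg adjustment over all 19938 genes, 6 of the 9 were lower in CAR cells at an adjusted p under 0.05, or 66.7%, and 0 were higher; over all genes 6.42% were called lower and 8.56% higher. At an unadjusted p under 0.05, 8 members were lower and 0 higher, against 18% and 17.1% of all genes. The same 6 fell 2-fold or more short of the PaS value on each CAR array, as did 8.92% of all genes; 0 members exceeded it 2-fold on both, against 10.9% of all genes. The median difference over the 9 genes was −1.88 log2 units, against −0.10 over all genes. The members were chosen with earlier results of these data known, so these shares describe the set and are not a test of it. Since PaS has 1 array, the error of this test is taken from the pair of CAR arrays, moderated over all genes, and assumed to hold for PaS too.

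**Figure D1:**
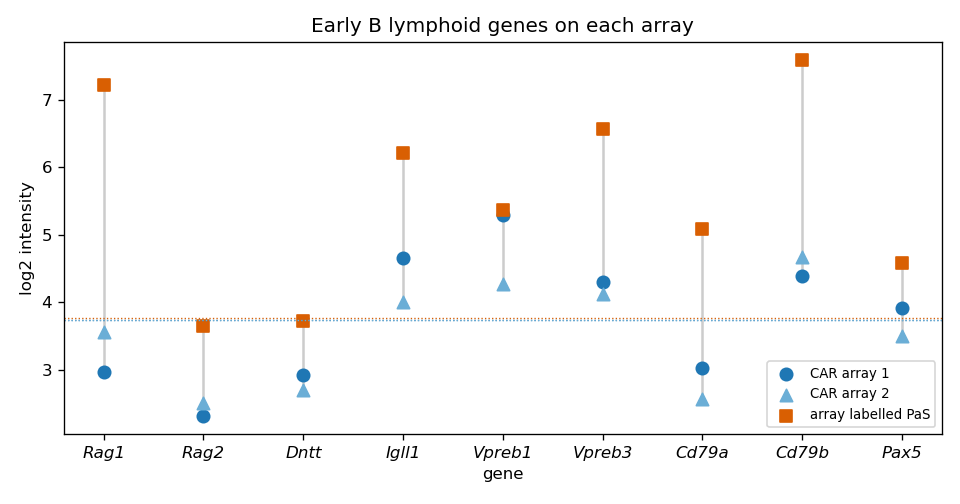
Log2 intensity of the 9 early B lymphoid genes (x axis) on CAR array 1 (circles), CAR array 2 (triangles) and the array labelled PaS (squares); dotted lines are each array's median over all genes and grey bars join the lowest and highest array. The PaS square is highest for every gene, far above the CAR arrays for Rag1 (7.22) and barely above CAR array 1 for Vpreb1 (5.37 against 5.30).

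The sort labels and the marker genes did not match throughout. Ptprc, which encodes CD45, read 8.27 on the array labelled PaS against 5.11 and 5.01 on the CAR arrays, although CD45+ cells were gated out. Pdgfra, a gate marker of PaS cells, read 4.33 there against 7.52 and 7.97. Ly6a, which encodes Sca-1, is not analysed here. The spread of values over genes also differed between arrays, at the dim and the bright end. The 5th percentile was 1.87 and 1.69 on the CAR arrays and 2.40 on the array labelled PaS. The 95th percentile was 6.69 and 6.93 against 6.16, and the interquartile range 1.96 and 2.28 against 1.35. Medians were alike at 3.74, 3.75 and 3.77, and no detection calls were used, so a value near or under them cannot be told from background. Where the CAR values are that dim, as for 7 of the 20 other B lineage genes called lower below, the size of a fold is uncertain. On the array labelled PaS 7 members lay above the median and 4 above the 95th percentile of 6.16. On both CAR arrays 4 lay under the median, 4 above it, and 0 reached the 95th percentile.

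Among the recombination genes, Rag1, the catalytic chain of the recombinase, read 2.97 and 3.56 on CAR arrays 1 and 2 and 7.22 on the array labelled PaS. Both CAR values lay under the median of their arrays while the PaS value was among the brightest 5%. The measured difference was −3.96 ± 0.36 log2 units (SE; limma adjusted p = 0.0114), the largest of the 9, but its size is uncertain because the CAR values are dim. Rag2, its obligate partner, read 2.32 and 2.52 against 3.65, so that all 3 arrays lay under the median. Its difference of −1.23 ± 0.29 log2 units lay just inside the threshold (limma adjusted p = 0.0496), between values that cannot be told from background on any array. The other 5 called members stood above the median on the array labelled PaS. Dntt read 2.92 and 2.71 against 3.73, again under the median on every array, and did not pass (−0.91 ± 0.29; limma adjusted p = 0.0921, unadjusted 95% interval −1.65 to −0.17). Of the 3 recombination genes, Rag1 alone stood above the median of the array labelled PaS.

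Of the pre-B cell receptor genes, Cd79b, the Igβ signalling chain, read 4.39 and 4.67 on the CAR arrays and 7.59 on the array labelled PaS. This was 8.31-fold lower in CAR cells (−3.05 ± 0.30; limma adjusted p = 0.0121), at place 45 of all genes. Cd79a, the Igα chain with which CD79b forms a dimer, read 3.03 and 2.57 against 5.08 (−2.28 ± 0.33; limma adjusted p = 0.0219), with both CAR values under the median and the size of the difference thus uncertain. For both chains each CAR array lay under the PaS value by more than the gap between the CAR arrays. Vpreb3, a chaperone-like relative of VpreB, read 4.30 and 4.13 against 6.57 and was 5.13-fold lower (−2.36 ± 0.29; limma adjusted p = 0.0164).

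The genes of the surrogate light chain gave different values. Igll1, which encodes lambda5, read 4.66 and 4.0016 on the CAR arrays and 6.21 on the array labelled PaS, and was 3.67-fold lower in CAR cells (−1.88 ± 0.37; limma adjusted p = 0.0371). Vpreb1, the gene next to it, read 5.30 and 4.27 against 5.37. CAR array 1 was level with the array labelled PaS, and CAR array 2 was lower by 1.10 log2 units. The mean difference of −0.58 ± 0.48 did not pass (limma adjusted p = 0.437), and its 95% interval of −1.80 to 0.64 spans lower as well as higher values in CAR cells. Whether the differences of Igll1 and Vpreb1 themselves differ was not tested. Vpreb2, a near-identical copy of Vpreb1 on the same chromosome that is no member, read 4.24 and 3.98 against 4.61 (−0.51 ± 0.29; limma adjusted p = 0.281). Probes can share signal between such copies, so both values are uncertain.

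Pax5, the factor that commits cells to the B lineage, read 3.92 and 3.51 on the CAR arrays against 4.58. Both CAR arrays lay below the array labelled PaS, as they did for 46.8% of all genes. The difference of −0.87 ± 0.32 did not pass (limma adjusted p = 0.125, unadjusted 95% interval −1.68 to −0.05). After quantile normalization of the 3 arrays it did pass, at −1.12 (adjusted p = 0.0213), which brought the members called to 7. With 16 added to every intensity before the logarithm, a setting that shrinks dim values, 0 of 19938 genes passed and the members' smallest adjusted p was 0.0537, while 8 of the 9 were lower at an unadjusted p under 0.05.

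**Figure D2:**
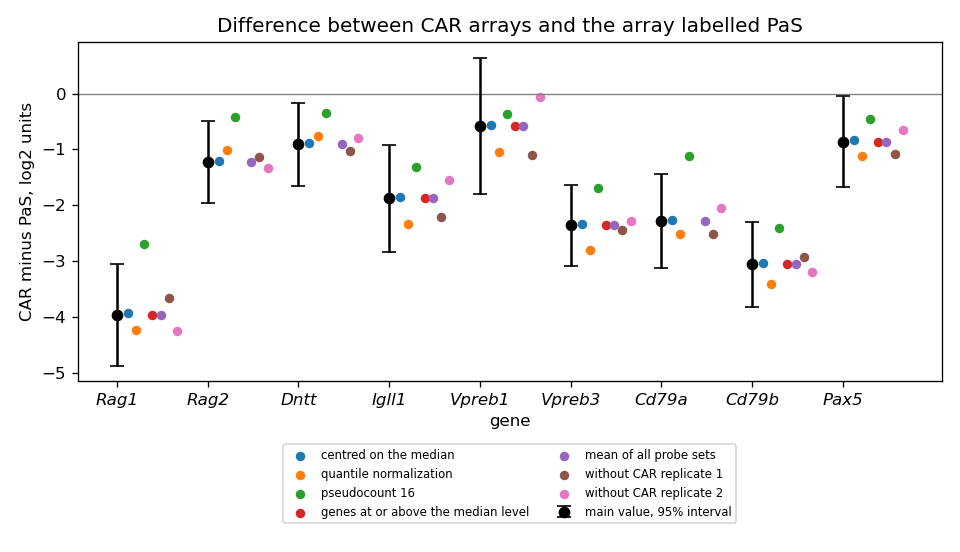
Difference CAR minus PaS in log2 units (y axis) for each early B lymphoid gene (x axis); black points are the main values with limma's 95% intervals and coloured points are the values under other settings. All points lie under 0, Rag1 between −4.25 and −2.68, and Vpreb1 is nearest to 0 at −0.07 without CAR replicate 2.

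The CAR arrays themselves were not equal for these genes. CAR array 1 was above CAR array 2 for 6 of the 9, by 1.03 log2 units for Vpreb1, 0.66 for Igll1, 0.46 for Cd79a and 0.42 for Pax5. CAR array 2 was above CAR array 1 by 0.59 for Rag1. The median absolute gap was 0.42 over the members and 0.27 over all genes. For 4 members it exceeded 0.45, the SD over all genes of the signed difference CAR array 1 minus CAR array 2. The matching shares of all genes are not given here, so the counts of 6 and 4 members are descriptions only. With CAR array 1 left out, 9 of 9 members were at least 2-fold lower, as were 14.1% of all genes. With CAR array 2 left out, 6 members were, and 11.6% of all genes. The members that move between these counts are Vpreb1, Pax5 and Dntt.

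**Figure D3:**
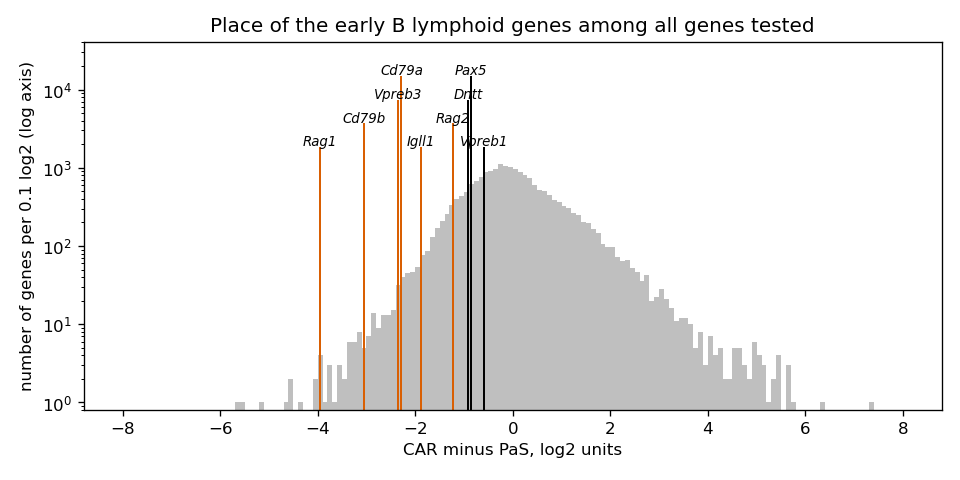
Histogram of the difference CAR minus PaS over 19938 genes in bins of 0.1 log2 units, with the count on a log axis; vertical lines mark the early B lymphoid genes, orange where limma called them lower in CAR cells and black where it did not. Rag1 at −3.96 and Cd79b at −3.05 lie in the far left tail, and Vpreb1, Pax5 and Dntt lie inside the bulk of genes.

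Other genes of the B lineage were read from 5 lists (transcription factors, receptor signalling, early lymphoid surface genes, mature B cell genes and plasma cell genes). Of their 64 measured genes, each counted once, 20 were lower in CAR cells and 3 higher (limma, adjusted p under 0.05), with a median of −0.78. Thus 31.2% were called lower, against 6.42% of all genes. These lists too were chosen with earlier results known, so the share is a description and not a test.

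Of 12 receptor signalling genes 6 were lower and 0 higher, with a median of −1.28. Btk, the kinase lost in X-linked agammaglobulinemia, read 2.70 and 2.53 on the CAR arrays, under their medians, against 5.96 and was lower (limma adjusted p = 0.011). Blnk, the adaptor downstream of the pre-B cell receptor, was 4.90-fold lower, Ptpn6, an inhibitory phosphatase of blood cells, 3.73-fold and Plcg2, a phospholipase, 3.45-fold. Btk, Ptpn6 and Plcg2 are also expressed by myeloid cells.

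Of 16 transcription factors 5 were lower and 1 higher, with a median of −0.56. Ikzf1, which encodes Ikaros, was 5.20-fold lower, Spi1, which encodes PU.1 of myeloid and B cells, 4.73-fold and Myb, a factor of blood progenitors, 4.26-fold. Ebf1, which acts just before Pax5 in B cells and is also made by CAR cells, went the other way: it read 8.65 and 8.38 on the CAR arrays against 5.89 for PaS, 6.19-fold apart (2.63 ± 0.30; limma adjusted p = 0.0143). Tcf3, which encodes E2A, read 6.06 and 5.93 against 5.85 and did not pass (0.15 ± 0.28; limma adjusted p = 0.733).

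Early lymphoid surface genes were lower for 4 of 12 and higher for 1. Il7r, the receptor chain for interleukin 7, read 3.54 and 3.05 against 4.86 and was 2.96-fold lower. Cd24a, the heat-stable antigen used to stage B cell precursors and carried by other blood cells too, was 3.48-fold lower, and Cd2 3.02-fold. Bst2, an interferon-inducible gene, was 2.93-fold higher in CAR cells. Mature B cell genes were lower for 4 of 17 and higher for 0, with a median of −0.77. These were Cd72 (3.83-fold), Fcmr (3.02-fold), Cd37 (2.48-fold) and Ms4a1, which encodes CD20 (2.38-fold, at 3.013 and 3.005 against 4.26). Of 7 plasma cell genes Jchain was 3.19-fold lower and Sdc1, which stromal and epithelial cells also make, 7.41-fold higher.

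End joining factors complete V(D)J recombination in lymphocytes but work in every cell. Of 11 genes measured in this list, 2 were lower and 1 higher, with a median of −0.25. The 2 lower genes, Hmgb1 and Hmgb2, do not encode end joining factors. They encode chromatin proteins that assist the recombinase and are abundant in dividing cells, and were 3.62-fold and 2.71-fold lower. Prkdc, the DNA-dependent kinase, was 2.28-fold higher.

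Most listed stromal genes that support B lymphopoiesis ran opposite to the early B lymphoid genes. The list holds receptor and transcription factor genes of stroma as well as ligand genes. Of 12 measured, 9 were higher in CAR cells and 0 lower, with a median of 2.93. The 3 not called were the ligand genes Flt3l (1.15, limma adjusted p = 0.0532), Tnfsf11 (−0.04, limma adjusted p = 0.929) and Tnfsf13b (−0.54, limma adjusted p = 0.33). Il7 read 6.34 and 6.31 on the CAR arrays and 3.61 on the array labelled PaS (6.56-fold), and Cxcl12 read 10.94 and 11.11 against 7.76 (9.63-fold). CAR cells are defined by abundant CXCL12, so the Cxcl12 difference is not a separate result. Lepr, Ebf3, Kitl and Pdgfra were 52.1-fold, 30.0-fold, 14.3-fold and 10.7-fold higher. The ligand gene Il7 was thus higher on the CAR arrays, where Il7r and most of the early B lymphoid genes were called lower.

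**Figure D4:**
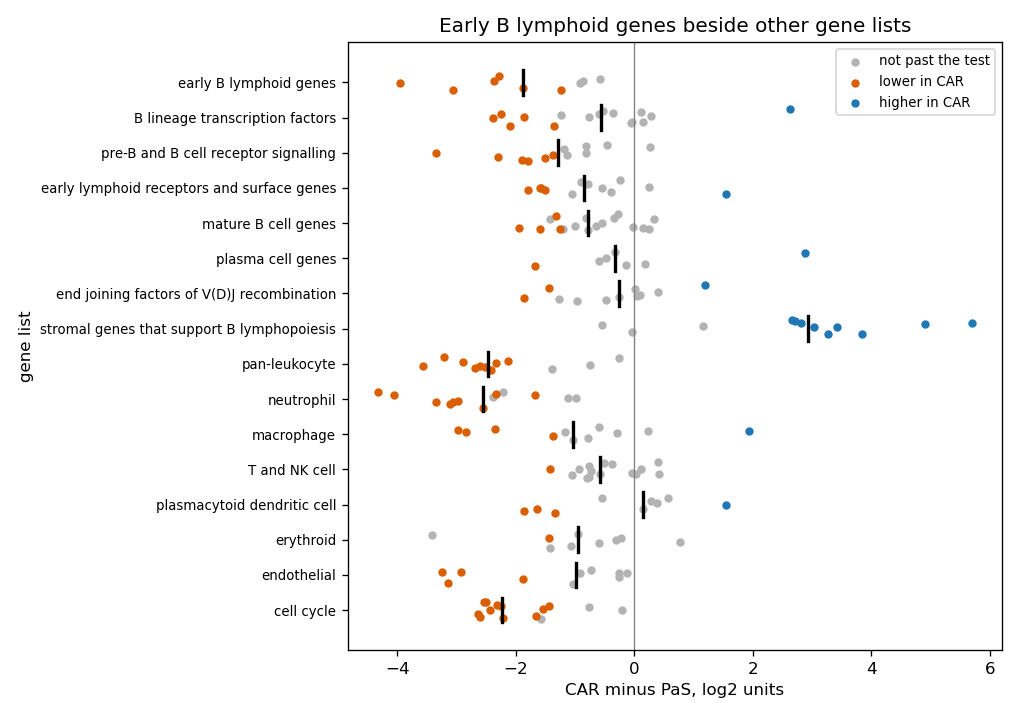
Difference CAR minus PaS in log2 units (x axis) for the genes of each list (y axis), coloured by limma's call, with the list's median as a black bar. The early B lymphoid genes (median −1.88) lie left of 0 together with the pan-leukocyte (−2.47), neutrophil (−2.55) and cell cycle (−2.23) lists. The median of the stromal support genes lies right of 0 (2.93).

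Markers of other cells were compared on the same arrays. Where both CAR values lie under the medians of their arrays, the size of a fold is again uncertain. That holds below for Cenpf, Rrm2, Gata3, Spib, Siglech and Ccr9, and for genes marked in the next paragraph. The intensities of the 9 early B lymphoid genes summed to 149.2 and 119.6 on the CAR arrays and 635.4 on the array labelled PaS. Of 12 pan-leukocyte genes 9 were lower in CAR cells and 0 higher, with sums of 645.0 and 910.2 against 3433 and Cd53, Ptprc, Itgb2 and Coro1a in front (11.9-fold, 9.28-fold, 7.37-fold and 6.43-fold lower). Of 13 neutrophil genes 9 were lower and 0 higher, with sums of 3120 and 2799 against 16607 and Camp, Ly6g, Mmp8 and Ltf in front (20.1-fold, 16.6-fold, 10.2-fold and 8.64-fold). Of 14 cell cycle genes 11 were lower and 0 higher, with sums of 433.2 and 503.7 against 1490, led by Aurkb, Cenpf, Rrm2 and Top2a (6.20-fold, 6.04-fold, 5.82-fold and 5.65-fold). Early B lymphoid genes therefore moved with genes of other blood cells and of dividing cells, and the part of these in the result was not tested.

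Macrophage genes were lower for 4 of 11 and higher for 1, with sums of 162.8 and 209.8 against 443.0. Fcgr3, C1qc and Mrc1 were lower (7.89-fold, 7.11-fold and 5.08-fold), and Mertk was 3.82-fold higher. Endothelial genes were lower for 4 of 10 and higher for 0, with sums of 119.6 and 110.1 against 424.8. Cdh5, Emcn, Fabp4 and Stab2 were 9.46-fold, 8.78-fold, 7.54-fold and 3.68-fold lower. Both CAR values of Mrc1, Cdh5, Emcn and Stab2 lay under the medians of their arrays, so the size of these folds is uncertain. Erythroid genes were lower for 1 of 9 (Hemgn, 2.71-fold) and higher for 0, with sums of 113.0 and 301.4 against 602.7. Car1 weighs heavily in the sums of CAR array 2 and the array labelled PaS. It read 3.04 and 7.37 on the CAR arrays against 8.61 and did not pass (limma adjusted p = 0.212).

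Rag1, Rag2 and Dntt are also used by T cell precursors, and plasmacytoid dendritic cells share some lymphoid genes. Of 15 T and NK cell genes 1 was lower, Gata3 (2.69-fold), and 0 higher, with sums of 129.5 and 120.4 against 168.7. The median of that list was −0.57, and both CAR arrays lay below the array labelled PaS for 10 of the 15 genes and above it for 3. Of 9 plasmacytoid dendritic cell genes Spib, Siglech and Ccr9 were lower (3.64-fold, 3.12-fold and 2.52-fold) and Bst2 higher, with sums of 339.4 and 337.9 against 292.4.

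Genes lying next to the members gave a local comparison. Of 14 measured protein-coding neighbours that are no members (order from RefSeq's GRCm38.p6 table), 3 were lower in CAR cells and 2 higher. Over all genes 6.42% were called lower and 8.56% higher. The neighbours had a median difference of −0.08 and a range of −2.29 to 1.99. Iftap, whose annotated span overlaps Rag2, read 4.56 and 4.85 on the CAR arrays against 2.71 and was higher there (1.99 ± 0.30; limma adjusted p = 0.023), opposite to Rag2. Traf6, on the other side of Rag1, read 3.36 and 3.64 against 2.81 and did not pass (limma adjusted p = 0.167). The lowest neighbour was Blnk, which lies beside Dntt and is itself a B cell gene. Spag6l beside Igll1 (−1.22, limma adjusted p = 0.0497) and Melk beside Pax5 (−1.28, limma adjusted p = 0.0492) were also lower. Zcchc7, on the other side of Pax5, was higher (1.70, limma adjusted p = 0.0278). Both neighbours of Cd79a, Rps19 and Arhgef1, failed the test (limma adjusted p of 0.321 and 0.262).

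The genes whose differences from the array labelled PaS were nearest to those of Rag1 were S100a4, Ly6g, Wfdc21, Thy1 and Slc38a1. Their Euclidean distances over the 2 differences (CAR array 1 minus PaS, CAR array 2 minus PaS) were 0.04, 0.14, 0.28, 0.36 and 0.37 log2 units. S100a4 read 3.70 and 4.29 against 7.98, and Ly6g, a neutrophil gene, 3.32 and 3.93 against 7.68. With 3 arrays likeness means only a similar size of difference, and just 14 named genes lay within 1 log2 unit of Rag1.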

How the data were processed

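Biotin-labelled cDNA from RNA of sorted cells was hybridised to Affymetrix arrays, 2 of CAR cells and 1 of PaS cells, grouped by the titles in the labels. Deposited values are linear signal intensities, which the authors made with Affymetrix Expression Console and RMA per the submitters' processing notes; the sources used here give no versions and no genome build. Nothing states that the CAR arrays differ beyond the mouse. The p-values set each difference against an error from these 2 CAR samples, moderated over all genes. Variation between PaS samples does not enter, and the small number of arrays limits the precision.

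Log2 was taken with no pseudocount. Of 35556 probe sets 21789 carried 1 symbol, 1621 several (not named) and 12146 were unnamed here. The brightest probe set of each gene was kept, which left 19938 genes. Differences were fitted over all genes with limma 3.58.1 in R 4.3.3 (lmFit, eBayes, two-sided, Benjamini-Hochberg threshold 0.05), with 1 residual and 4.20 prior degrees of freedom. The fit was tested on simulated data of 3 arrays with 19938 genes, of which 50 per size were lowered. It called 0% of changes of 1 log2 unit, 2% of 2, 68% of 3 and 98% of 4. In the data 1281 genes were called lower and 1706 higher, far more than were changed in the simulation. The adjusted threshold depends on that share, so these percentages do not give the power in the data. The smallest absolute difference called there was 1.18.

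The members and gene lists were chosen with earlier results of these data known. Named are all members, up to 4 called genes per list with the largest difference, 7 fixed genes (Ptprc, Cxcl12, Il7, Il7r, Ebf1, Ms4a1, Sdc1; 1 other is not reported here) and the 5 genes nearest to Rag1. Named outside this rule are Vpreb2, Ighm, Tcf3, Ly6a, Ly6d, Car1, Flt3l, Tnfsf11, Tnfsf13b and genes beside the members. Alternatives were median centring, quantile normalization, a pseudocount of 16, a filter on dim genes, the mean of a gene's probe sets, an intensity trend or robust prior in eBayes, and leaving out each CAR array.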

Additional observations from a re-analysis of the deposited data

How the results depend on the processing

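All 9 members kept a negative difference under every setting that measured them. The intensity trend, the robust prior, the filter and the mean of probe sets could not change a member's difference, as each member has 1 probe set. For the sign, only the other settings are informative. The filter at the median level left 6 of them, 4 called lower. The 6 called members stayed called, where tested, in 6 of 7 other fits; the exception was the pseudocount of 16, which called 0 members, 0 of the other B lineage genes in either direction and 0 of all genes in either direction (limma; at an unadjusted p under 0.05 it had 8 and 0 members, 27 and 3 other B lineage genes, and 2637 and 3157 of all genes, lower and higher). Its smallest adjusted p was 0.0537. Pax5 passed with quantile normalization, which called 30 of the other B lineage genes lower instead of 20. Over all genes 1281 were called lower and 1706 higher, 2897 and 2757 with quantile normalization, and 510 and 2062 with the filter. Members lower by at least 2-fold on each CAR array numbered 6, 5 with quantile normalization or the pseudocount, 4 of 6 with the filter, and 6 to 9 with 1 CAR array left out; members at least 2-fold higher numbered 0 to 0 there. Leaving out a CAR array leaves 1 against 1, with no test. No paired analysis was possible because the CAR and PaS cells came from different mice.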

Other observations

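Ighm, the heavy chain that pairs with the surrogate light chain, is read by 3 probe sets, which gave different pictures. The brightest read 4.23 and 4.03 on the CAR arrays and 4.03 on the array labelled PaS (0.10 ± 0.29 log2 units, SE; limma adjusted p = 0.835). Another read 3.35 and 2.90 against 4.37. The dimmest read 1.01 and 1.06 against 2.60, under the 5th percentile of both CAR arrays (1.87 and 1.69) and just above that of the array labelled PaS (2.40), so its difference cannot be told from that of the arrays' low ends. They were not tested singly. Ly6d, a surface gene of early lymphoid cells that was picked after its values were seen, had the widest gap between the CAR arrays among the early lymphoid surface genes, at 5.67 and 4.23 against 5.50. CAR array 1 was again the higher one, as for Vpreb1.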
